A study of Mus musculus with 6 samples.

Results

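Perilipins and lipid droplet lipases are the proteins that coat the triglyceride store of a fat cell and the enzymes that empty it. The group described here holds 10 genes chosen by symbol (Plin1, Plin2, Plin4, Plin5, Cidec, Abhd5, G0s2, Pnpla2, Lipe and Mgll), and all 10 were present among the 13490 genes of the deposited table. Their transcripts were measured by RNA sequencing in inguinal white adipose tissue, a subcutaneous fat depot, of male mice of the C57BL/6J strain, wild type in genotype and 15 weeks old. One group of 3 mice drank water containing sodium arsenite, a trivalent inorganic arsenic salt, at 300 ppb for 9 weeks, and the control group of 3 mice drank distilled water (dH2O) for 9 weeks. The study's title concerns heat production by fat, and the comparison made is arsenite over water.

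For each gene the authors deposited 1 mean per group, on a count-like scale, so no SD accompanies any mean given here. Values per mouse were not analysed here, and whether the mice of the 2 groups overlap could not be seen for any gene. Sequencing depth is known only from the labels, which give 20000000 mapped reads for every sample. Genes count as called changed where the authors' posterior probability of equal expression (PPEE, which is not a p-value) was at most 0.05. By that bound 99 genes were called, 0.734% of all genes, with 52 higher and 47 lower under arsenite. In bulk tissue, fewer cells of a type and less RNA per cell cannot be told apart.

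As background, perilipins are coat proteins that decide how much of the droplet surface lipases can reach. In white adipocytes PLIN1 holds the coactivator ABHD5 away from adipose triglyceride lipase (ATGL, encoded by Pnpla2) until protein kinase A phosphorylates the coat. ATGL, hormone-sensitive lipase (Lipe) and monoglyceride lipase (Mgll) then remove the fatty acids of a triglyceride in turn, and G0S2 inhibits ATGL. PLIN2 is the coat of small droplets in many tissues, PLIN5 that of tissues that oxidise fat, and CIDEC (FSP27) moves lipid between touching droplets so that a single large droplet forms.

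None of the 10 genes was called changed (0 of 10, against 0.734% of all genes, 0.385% called higher and 0.348% called lower), and their direction was mixed. Plin4, Cidec, Lipe, Pnpla2, Plin1 and Mgll had higher means under arsenite, by 1.17-fold to 1.67-fold, whereas Plin2, Plin5, Abhd5 and G0s2 had lower means, by 1.09-fold to 1.77-fold. The median log2 ratio of arsenite over water over the 10 genes was 0.24, and it was -0.03 over all 13490 genes in the authors' deposited table. All 10 genes were abundant: 1979 genes had an average of both means at least as high as that of Plin5, the least abundant of the 10. Among those 1979 genes the median log2 ratio was -0.15 and 69.4% of ratios lay below 0, compared with 4 of 10 here. Summed over the 10 genes, the means came to 101499 under arsenite and 86018 under water, which is 1.32% of the summed means of all genes under arsenite and 0.999% under water. The summed means of all genes were 7.72e+06 under arsenite and 8.61e+06 under water, so the lower arsenite total also enters the larger share.

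**Figure D1:**
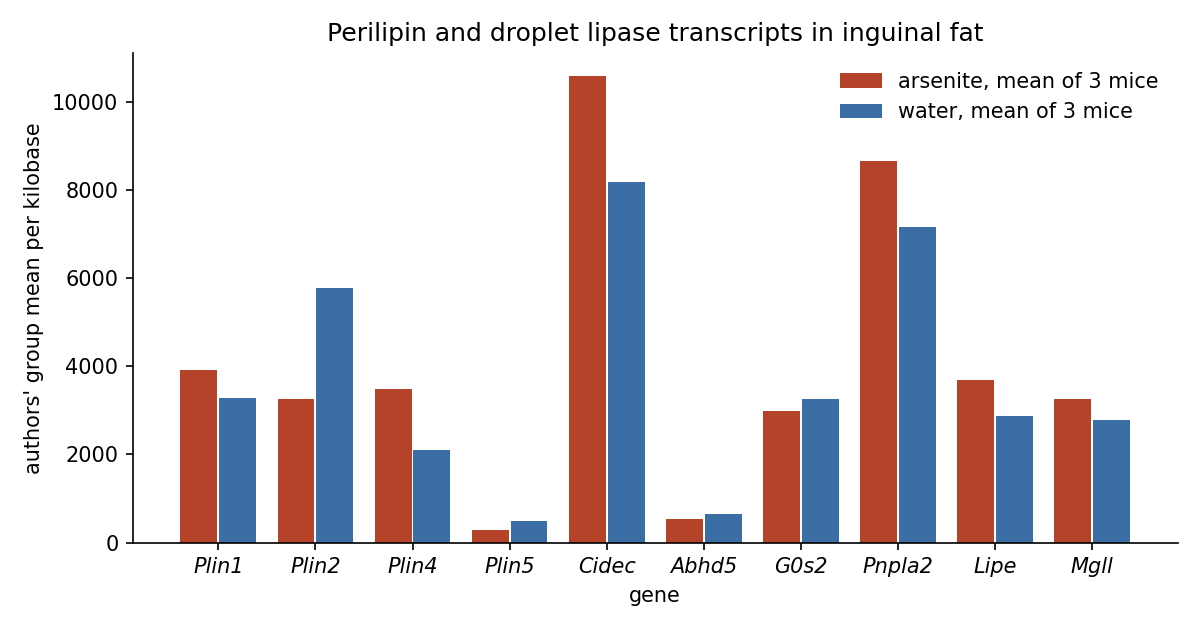
Authors' group mean per kilobase of gene length (vertical axis) for each of the 10 genes (horizontal axis), with the arsenite mean as the left bar and the water mean as the right bar of each pair, without error bars because values per mouse were not analysed. Plin2 shows the largest gap with arsenite below water, 3258 against 5770, and the Cidec and Pnpla2 bars are the tallest in both groups.

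The perilipin genes lay on both sides of equality. Plin2 (perilipin 2, chromosome 4) had an authors' mean of 6147 under arsenite and 10887 under water, 1.77-fold lower, and the authors' deposited table gives it a log2 ratio of -0.82 and PPEE 0.107. That PPEE was the lowest of the 10 genes and missed the bound; 124 genes of the table had a lower one, of which 25 were also not called. Plin5 (perilipin 5, chromosome 17) had means of 560 under arsenite and 955 under water, 1.70-fold lower, and the authors' deposited table gives it a log2 ratio of -0.77 but PPEE 0.995. Plin1 (perilipin 1, chromosome 7), the main coat protein of white adipocytes, had means of 7389 under arsenite and 6184 under water, and the authors' deposited table gives it a log2 ratio of 0.26 and PPEE 0.999. Plin4 (perilipin 4, chromosome 17), a coat protein of white adipocytes that is thought to bind nascent droplets, had the highest ratio of the 10 genes. Its means were 20103 under arsenite and 12073 under water, 1.67-fold higher, and the authors' deposited table gives it a log2 ratio of 0.74 and PPEE 0.997. Among the 1979 genes of like or higher level, 49 had a ratio as low as that of Plin2 or lower and 26 a ratio as high as that of Plin4 or higher, both counts including the gene itself.

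Plin4 and Plin5 are neighbours on the minus strand of chromosome 17, at 56100591 to 56109803 and 56111601 to 56117596 in the GENCODE M21 annotation of GRCm38. Although 1798 bases separate them, their log2 ratios were 0.74 and -0.77 in the authors' deposited table. No 50-base stretch of either gene's annotated transcripts occurs in another gene.

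Because levels of different genes compare only per length, each mean was divided by the deposited gene length in kilobases, and the perilipin family was then summed, with Plin3 added to its 4 members of the group. The sum over the 5 perilipins was 11167 per kilobase under arsenite and 11880 per kilobase under water. In these group means the summed level was close to equal while the shares of its genes differed. Plin2 made up 29.2% of the summed level under arsenite and 48.6% under water. Plin4 made up 31.3% under arsenite and 17.7% under water, and Plin1 35.0% under arsenite and 27.6% under water. Plin5 made up 2.54% under arsenite and 4.07% under water, and Plin3 1.96% under arsenite and 2.13% under water. With the longest annotated transcript as the length, the Plin2 share was 33.3% under arsenite and 53.9% under water, and the Plin1 share 26.8% under arsenite and 20.5% under water. The Plin4 share was then 35.7% under arsenite and 19.6% under water, so Plin4 in place of Plin1 had the largest share under arsenite. No error can be given for these shares, and none of the 5 genes was called.

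The promoters of Plin2, Plin1 and Cidec are shown because Plin2 had the lowest ratio of the 10 genes, Plin1 and Cidec lay on the other side of 0, and each holds a match to a motif of a factor family that acts on fat-cell genes. The stretches run from 250 bases before to 30 bases after an annotated start, 5′ to 3′, all on the minus strand (RefSeq, GRCm38.p6), and capitals mark motif matches. They lie at chr4:86670030-86670309 for Plin2, chr7:79732747-79733026 for Plin1 and chr6:113434735-113435014 for the Cidec start that holds a match, 1 of 2 annotated for that gene.
Plin2: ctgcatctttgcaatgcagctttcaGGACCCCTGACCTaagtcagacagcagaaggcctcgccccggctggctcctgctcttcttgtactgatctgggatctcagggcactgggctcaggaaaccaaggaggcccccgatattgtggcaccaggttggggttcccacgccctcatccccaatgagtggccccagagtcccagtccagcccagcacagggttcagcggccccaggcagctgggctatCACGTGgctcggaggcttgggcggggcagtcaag
Plin1: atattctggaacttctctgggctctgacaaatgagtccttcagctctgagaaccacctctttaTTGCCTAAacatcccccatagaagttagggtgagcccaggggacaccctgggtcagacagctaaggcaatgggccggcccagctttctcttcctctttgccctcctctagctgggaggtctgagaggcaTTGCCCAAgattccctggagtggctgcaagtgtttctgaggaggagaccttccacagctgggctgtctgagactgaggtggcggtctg
Cidec: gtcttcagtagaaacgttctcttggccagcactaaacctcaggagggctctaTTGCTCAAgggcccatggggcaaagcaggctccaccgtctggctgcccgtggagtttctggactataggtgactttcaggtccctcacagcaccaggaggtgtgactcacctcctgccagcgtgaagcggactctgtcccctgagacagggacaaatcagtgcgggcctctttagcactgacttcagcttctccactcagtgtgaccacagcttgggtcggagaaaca

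In the Plin2 promoter the first capitals match the direct repeat bound by PPAR and RXR, which is AGGTCA followed by any 1 base and AGGTCA again, on the opposite strand and with 2 mismatches allowed among its 12 fixed letters, and the second match CACGTG, an E-box. The capitals in the Plin1 promoter (2 matches) and the Cidec promoter (1 match) are TTGCNNAA, a pattern bound by C/EBP factors. None of these matches overlap each other. Searched on both strands of the 250 bases before and 50 after each start, the direct repeat was held by 1 of the 10 genes and 3.86% of all 32851 promoters in the table. Genes and promoters are different units, so these shares are not directly comparable. A gene counts if any of its annotated starts holds a match, and Cidec, Lipe, Mgll and Plin5 have 2 starts each. TTGCNNAA was held by 2 of the 10 genes (Plin1 and Cidec) and 10.8% of promoters, and CACGTG by 3 of the 10 genes (Plin2, Lipe and Mgll) and 7.15% of promoters. The glucocorticoid receptor element, AGAACA and TGTTCT with any 3 bases between them and 2 mismatches allowed, was held by 0 of the 10 genes and 1.84% of promoters. The genes that shared CACGTG differed in direction, with log2 ratios of -0.82 for Plin2, 0.36 for Lipe and 0.23 for Mgll in the authors' deposited table. A match describes letters and is not evidence of binding.

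Cidec, on chromosome 6, had authors' means of 17994 under arsenite and 13903 under water, 1.29-fold higher, and the authors' deposited table gives it a log2 ratio of 0.37 and PPEE 0.999. Its relative Cidea, which serves the same droplet fusion in brown and beige adipocytes, had means of 2372 under arsenite and 6787 under water, and the authors' deposited table gives it a log2 ratio of -1.52 and PPEE 0.995. Thus the 2 fusion genes of fat cells lay on opposite sides of 0, and neither was called.

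Abhd5 and G0s2, direct regulators of ATGL, had lower deposited means under arsenite. Abhd5 (CGI-58, chromosome 9), the coactivator, had means of 1650 under arsenite and 2059 under water, and the authors' deposited table gives it a log2 ratio of -0.32 and PPEE 0.830. Of the 50-base stretches of Abhd5 transcripts, 15.1% occur in other genes on either strand, among them an antisense gene that overlaps it, so part of its value is uncertain. G0s2 (chromosome 1), the inhibitor, had means of 2530 under arsenite and 2751 under water, and the authors' deposited table gives it a log2 ratio of -0.12 and PPEE 0.999. The direction of G0s2 was not settled: its log2 ratio was 0.08 under quantile normalization and 0.09 once the trend of ratio on gene length was removed. Its deposited length of 847 bases puts it in the shortest 10% of genes, whose median log2 ratio was -0.22.

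The 3 lipases that act in turn all had higher means under arsenite, by small factors. Pnpla2 (ATGL, chromosome 7), which takes the first fatty acid from a triglyceride, had means of 22800 under arsenite and 18899 under water, 1.21-fold higher. Lipe (hormone-sensitive lipase, chromosome 7), the main diglyceride hydrolase, had means of 10364 under arsenite and 8082 under water, 1.28-fold higher. Mgll (monoglyceride lipase, chromosome 6), which releases the last fatty acid and glycerol, had means of 11963 under arsenite and 10225 under water, 1.17-fold higher. Their log2 ratios were 0.27, 0.36 and 0.23 and their PPEE 0.999, 0.998 and 0.890 in the authors' deposited table. Lipe overlaps an antisense gene, 4732471J01Rik, which had means of 746 under arsenite and 593 under water. Of the 50-base stretches of Lipe transcripts, 10.8% occur in that gene, and whether the counting used strand is not given in the sources used here.

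Ratios between partners at the droplet were taken per kilobase within each group, as a description without error. Abhd5 stood at 0.134 of Plin1, the protein that binds it, under arsenite and at 0.200 under water. Pnpla2 stood at 16.5 times its coactivator Abhd5 under arsenite and 11.0 times under water, and at 2.89 times its inhibitor G0s2 under arsenite and 2.21 times under water. Plin2 stood at 0.832 of Plin1 under arsenite and 1.76 times Plin1 under water, and Plin5 at 0.0724 of Plin1 under arsenite and 0.147 under water. Plin4 stood at 0.893 of Plin1 under arsenite and 0.640 under water. Which side of 1 these ratios lie on depends on the Plin1 length: with the longest annotated transcripts, a length chosen for them after seeing the data, Plin2 stood at 1.24 times Plin1 under arsenite and 2.63 times under water, and Plin4 at 1.33 times Plin1 under arsenite and 0.955 under water. Lipe relative to Plin1 was 0.942 under arsenite and 0.878 under water, Mgll relative to Lipe 0.882 under arsenite and 0.967 under water, and Cidec relative to Plin1 2.70 under arsenite and 2.49 under water. Of these pairs, those of Plin2 and Plin5 with Plin1 differed most between the groups, and those of Lipe and Cidec with Plin1 were among the closest.

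Ordered per kilobase under arsenite, Cidec (10572) and Pnpla2 (8646) came first, followed by Plin1 (3914), Lipe (3687), Plin4 (3493), Plin2 (3258), Mgll (3252) and G0s2 (2987), with Abhd5 (524) and Plin5 (283) last. The order under water was Cidec (8169), Pnpla2 (7166), Plin2 (5770), Plin1 (3275), G0s2 (3248), Lipe (2875), Mgll (2779), Plin4 (2098), Abhd5 (654) and Plin5 (483), all per kilobase. The first 2 and last 2 places were held by the same genes in both groups. Without a spread over mice, neighbours in the middle cannot be ranked. Plin1 and Lipe also depend on the length used: with their longest annotated transcripts they stood at 2623 and 2791 per kilobase under arsenite and at 2195 and 2177 under water.

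**Figure D2:**
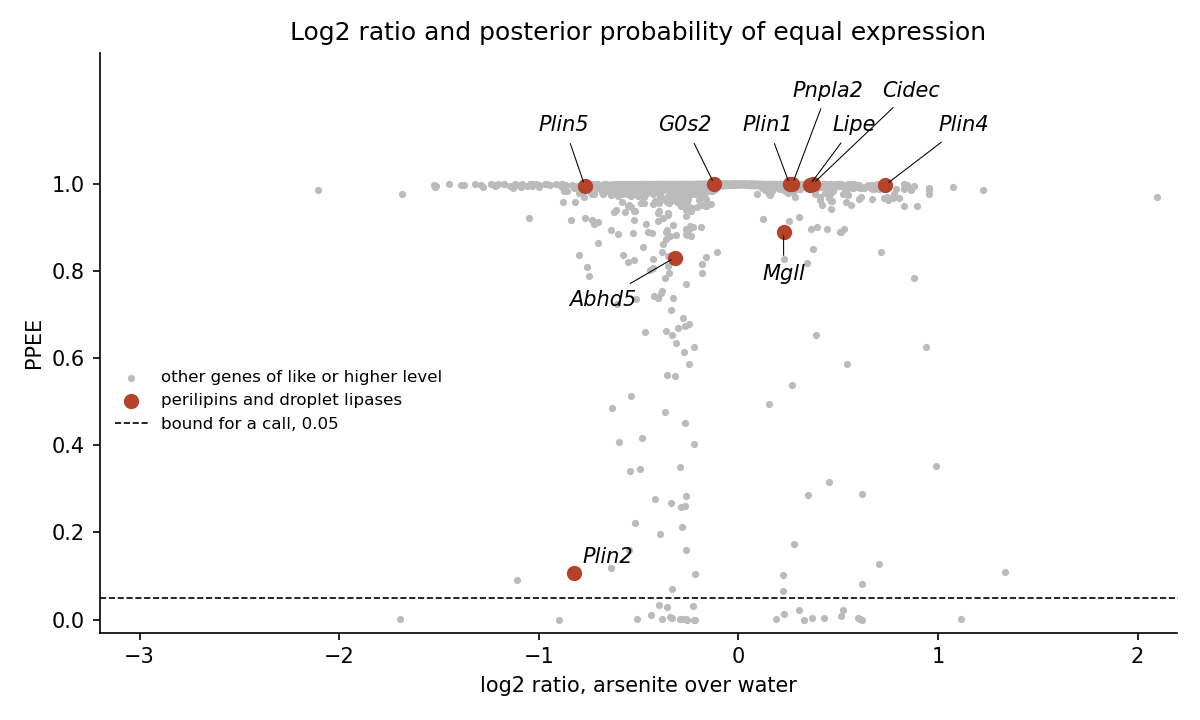
Log2 ratio of arsenite over water (horizontal axis) against PPEE (vertical axis) for the 10 genes in red and for the other genes at or above the average level of Plin5 in grey, with the bound of 0.05 dashed. Plin2 lies just above the bound at 0.107, and 7 of the 10 genes lie above 0.9.

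Plin2 and Plin5 had near-equal log2 ratios of -0.82 and -0.77, yet PPEE of 0.107 and 0.995 in the authors' deposited table, and Mgll, with a ratio of 0.23, had a lower PPEE (0.890) than Plin4 with 0.74 (0.997). A PPEE above 0.9, held by 7 of the 10 genes, was held by 95.0% of all genes in the authors' deposited table. Among the 1979 genes of like or higher level, 68 had an absolute log2 ratio at least as large as that of Plin2 and 3 of the 68 were called; 28 of the 1979 genes were called in all (1.41%). The spread between mice that enters a PPEE was not analysed here.

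**Figure D3:**
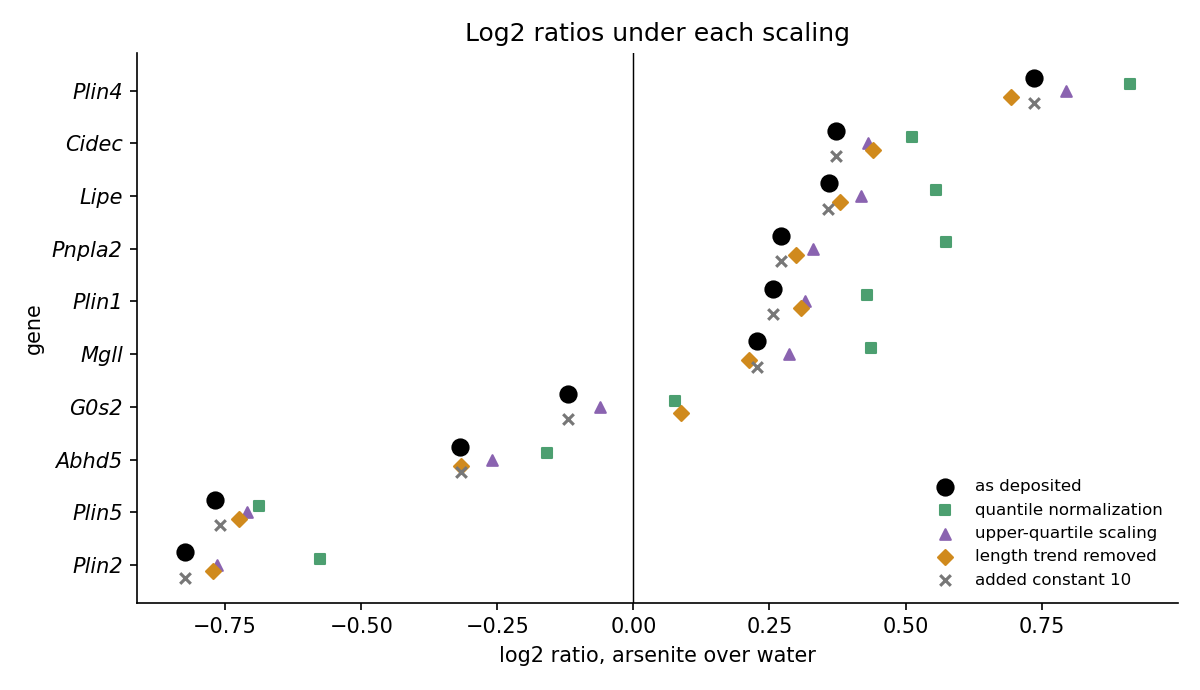
Log2 ratio of arsenite over water (horizontal axis) for each gene (rows) as deposited and under 4 of the 5 other settings, 1 symbol per setting; the added constant of 0.1, which moved each ratio least, is not drawn. Symbols of 9 genes stay on their side of 0, and those of G0s2 lie on both sides.

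Other scalings left the sides of 9 genes unchanged, but not every setting could have changed one. Upper-quartile scaling raised all ratios by nearly the same small amount, with G0s2, the nearest to 0, at -0.12 before and -0.06 after. The added constants were small beside these means. Those settings therefore could not move a gene across 0. Plin2 ranged from -0.82 to -0.58 and Plin5 from -0.77 to -0.69 on the log2 scale over the deposited ratio and 5 other settings, the value nearest 0 being that under quantile normalization. Plin4 ranged from 0.69 with the length trend removed to 0.91 under quantile normalization. Pnpla2 was the lipase that moved most, with 0.57 under quantile normalization against 0.27 in the authors' deposited table.

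Of 88 measured genes in 6 lists around the droplet, 2 were called (2.27%, against 0.734% of all genes), both higher under arsenite. The difference between these shares was not tested. The lists were chosen with earlier results of these data known, so the larger share is not a result about them. Among 14 measured genes of other droplet surface proteins, 4 had ratios above 0 and 10 below (median -0.20, or -0.12 under quantile normalization, 0 called). Those of smallest PPEE were Ptrf (cavin 1, a caveolar coat protein), with means of 6713 under arsenite and 3988 under water and PPEE 0.962, and Cideb, with 10.8 under arsenite and 25.0 under water and PPEE 0.928, both posteriors from the authors' deposited table. Of 12 genes of droplet formation and triglyceride synthesis, 2 lay above 0 and 10 below (median -0.17, or -0.02 under quantile normalization, 0 called). Tmem159, a partner of seipin in droplet formation, had means of 217 under arsenite and 168 under water, and Lpin1, a phosphatidate phosphatase, 4126 under arsenite and 4775 under water, and both were not called. Other lipases and esterases numbered 15, with 6 above 0 and 9 below (median -0.10, or 0 under quantile normalization, 0 called). The list includes Fam213b, which is not a lipase. Lipg, endothelial lipase, had means of 17.1 under arsenite and 45.8 under water (PPEE 0.428 in the authors' deposited table), and Ddhd2, a triglyceride hydrolase best known from brain, 1094 under arsenite and 1744 under water.

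Upstream of the droplet, 1 gene of each of 2 lists rose, beside 0.385% of all genes called higher. Among 14 transcription factors and coactivators, 6 lay above 0 and 8 below (median -0.09, or 0.02 under quantile normalization), and Klf15, a Krüppel-like factor of adipocyte metabolism, rose to 518 under arsenite, against 415 under water (in the authors' deposited table, log2 ratio 0.32 with PPEE 0.00696). Among 19 genes of hormone signals onto lipolysis, 12 lay above 0 and 7 below (median 0.10, or 0.31 under quantile normalization). Niacr1, also called Hcar2, the nicotinic acid receptor that restrains lipolysis, rose to 214 under arsenite, against 125 under water (in the authors' deposited table, log2 ratio 0.77 with PPEE 3.8e-07). Of 14 genes for the fate of released fatty acids and glycerol, 5 lay above 0 and 9 below (median -0.13, 0 called). Cpt1a, the gatekeeper of fatty acid entry into mitochondria, had means of 435 under arsenite and 312 under water, and Acsl5, an acyl-CoA synthetase, 568 under arsenite and 1245 under water. Beside these lists the median ratio was -0.03 over all genes and -0.15 over the 1979 genes at or above the average level of Plin5. The lists hold genes above and below that level and were not tested as groups.

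**Figure D4:**
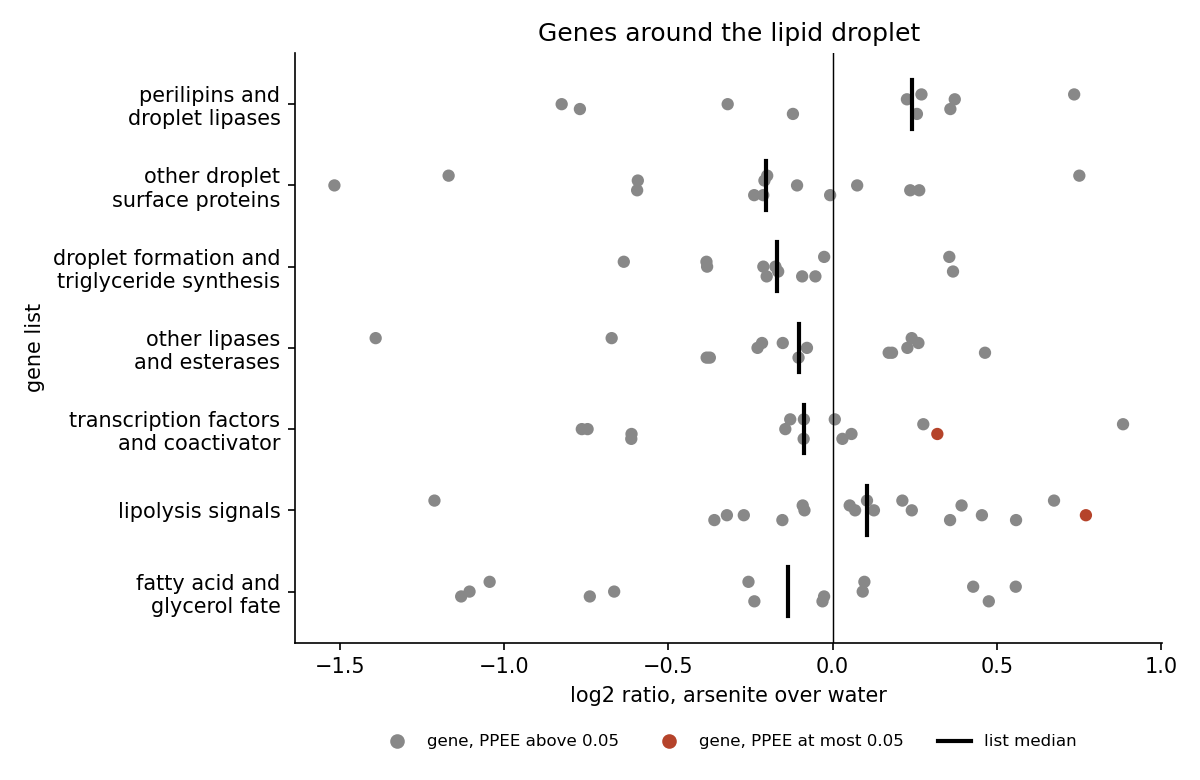
Log2 ratio of arsenite over water (horizontal axis) of the 10 genes and of 6 lists of other genes around the droplet (rows), 1 point per gene, red where PPEE was at most 0.05, with the list median as a black bar. The medians run from -0.20 to 0.24, and the red points are Klf15 and Niacr1.

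Markers of the cell types in the depot were read beside these values. All 12 white and general adipocyte markers were measured, 6 above 0 and 6 below, with 0 called. Their median was 0.03, or 0.19 under quantile normalization and 0.26 with the length trend removed. Their summed means were 485147 under arsenite and 484474 under water, sums that mostly follow the most abundant markers. Every one of the 12 brown and beige markers lay below 0 (median -1.19, summed means 27265 under arsenite and 67467 under water, 0 called, none at 0). Plin2, Plin5, Abhd5 and G0s2 lay on that side in the deposited ratios, and Plin4, Cidec, Lipe, Pnpla2, Plin1 and Mgll on the other. The part of these markers' cells in the values of the 10 genes and of Cidea, itself one of the markers, was not tested. Skeletal muscle markers, of which 10 of 12 were measured, lay below 0 in 8 cases (median -0.34, summed means 149252 under arsenite and 197262 under water, 0 called, none at 0). The part of muscle in the values of the 10 genes was not tested. Endothelial markers lay above 0 in 9 of 10 cases (median 0.72, summed means 6114 under arsenite and 3664 under water, 0 called, none at 0). Plin4, Cidec, Lipe, Pnpla2, Plin1 and Mgll lay on that side, and Plin2, Plin5, Abhd5 and G0s2 on the other in the deposited ratios. The part of endothelial cells in the values of the 10 genes was not tested. Preadipocyte markers lay above 0 in 8 of 10 cases (median 0.19, 0 called) and macrophage markers in 5 of 10 (median -0.01, 0 called). Of 10 lymph node markers 6 were measured, all 6 below 0. Of these, 1 was called lower, beside 0.348% of all genes called lower. It was Ccl21a, listed at 0 under arsenite and at a mean of 79.5 under water. In the table were 0 of 10 mammary and skin epithelium markers.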

How the data were processed

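RNA sequencing of inguinal fat from 3 arsenite-treated and 3 water-treated mice was used through the authors' table of 13490 genes. Per the labels' protocols, reads were aligned to GRCm38; RSEM, HISAT and Bowtie2 are named in the submitters' processing notes, with neither version nor role. How libraries were scaled, genes filtered and groups compared is not given in the sources used here. The authors deposited a signal per group (a mean on a count-like scale, neither whole counts nor a per-million unit), the log2 ratio of treatment over control, PPEE and gene length. Control was taken to be water, and treatment arsenite. The deposited log2 ratio equals that of the means after 0.574 is added to each, to within 3.62e-08. PPEE, in EBSeq's terms, is the posterior probability that a gene is equally expressed.

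Tests planned on values per mouse were not run, since such values were not analysed here: no SD, test, left-out replicate or batch could be given. Levels were group means divided by deposited length. Named beside the 10 genes were, in each of the 6 lists of genes around the droplet, the called genes or else the 2 of smallest PPEE among genes whose higher mean reached 20; Plin3, Cidea, 4732471J01Rik, Fam213b, Ccl21a, Gyk, Gpd1, Pck1, Agpat2, Gpr81, Cav1 and Cav2 were named outside that rule, after their values were seen, and cell type markers are given as lists. The 10 genes, the lists and the PPEE bound were chosen with earlier results of these data known. Symbols were matched to RefSeq (GRCm38.p6) by gene identifier, 13463 of 13490 matching. Shared sequence was counted over GENCODE M21 transcripts. Quantile normalization, upper-quartile scaling, added constants of 0.1 and 10, removal of the length trend (lowess, span 0.3), a minimum mean of 50, PPEE bounds of 0.01 and 0.1 and an absolute log2 ratio of 1 were tried. The computations were tested on simulated data. Software was matplotlib 3.10.9, statsmodels 0.14.6, scipy 1.17.1, pandas 2.3.3 and numpy 2.4.6 under Python 3.11.15.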

Additional observations from a re-analysis of the deposited data

How the results depend on the processing

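The median log2 ratio of the 10 genes, 0.24 as deposited, was 0.43 after quantile normalization, 0.30 after upper-quartile scaling, 0.24 with an added constant of 0.1 or of 10, and 0.26 with the length trend removed; a minimum mean of 50 left out none of the 10 genes. Quantile normalization and the removal of the length trend moved G0s2 above 0, and no other gene of the 10 changed side under any of these settings. Upper-quartile scaling and the added constants shifted these ratios too little to move any of the 10 across 0. The cause of these shifts was not tested. The count of called genes was 0 with PPEE bounds of 0.01 and 0.1 and with an absolute log2 ratio of at least 1 required. The bound of 0.01 and the required ratio could only remove calls, so neither could have changed a count of 0. The looser bound of 0.1 could have added a gene. It added none, since the lowest PPEE of the 10 genes was 0.107, for Plin2. The direct repeat in the Plin2 promoter is a match with 2 mismatches: with at most 1 or 0 mismatches, 0 of the 10 genes held it. No paired analysis was possible because the table holds group means and the groups share no replicate number. Settings that need values per mouse (edgeR or limma, leaving out a replicate) were not run. The stated number of mapped reads is the only measure of depth, and no counting error can be attached to a group mean.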

Other observations

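The genes that return released glycerol and fatty acids to triglyceride were not uniform, and none was called; they were picked after their values were seen. Gyk, glycerol kinase, had authors' means of 2150 under arsenite and 4434 under water, and Gpd1, glycerol-3-phosphate dehydrogenase, 19269 under arsenite and 32159 under water. Pck1, which feeds glyceroneogenesis, had 14537 under arsenite and 10804 under water. Agpat2, an acyltransferase of triglyceride synthesis in adipocytes, had 10145 under arsenite and 15761 under water. The lactate receptor gene Gpr81 (Hcar1), like Niacr1 a restrainer of lipolysis, had means of 410 under arsenite and 256 under water (authors' deposited table, PPEE 0.848). The caveolar genes Cav1 and Cav2, which act with Ptrf, had 17397 and 5345 under arsenite and 17486 and 5074 under water.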
